A study of Sus scrofa with 9 samples.

Results

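RNA-binding proteins that control translation in male germ cells were followed through pig sperm formation. The set was given as a list of 10 gene symbols: the Y-box genes YBX1, YBX2 and YBX3, the cytoplasmic poly(A)-binding protein genes PABPC1 and PABPC4, the DAZ-family genes DAZL and BOLL with their partner gene DAZAP1, and the cytoplasmic polyadenylation element-binding genes CPEB1 and CPEB2. Of these, 9 were matched by symbol to an Ensembl identifier among the 22342 genes of the count table, and all 9 passed the filter on low counts. DAZL had no matching symbol and is not analysed here.

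The libraries were made from total RNA of testis cells of Sus scrofa at 3 stages: spermatogonia, the mitotic cells of the germ line; spermatocytes, the cells in meiosis; and round spermatids, the haploid cells that follow. Each stage had 3 libraries, numbered 1, 2 and 3 for spermatogonia and round spermatids and 2, 3 and 4 for spermatocytes. No genetic change or treatment is named for any of them, and the sources used here give no strain, age or number of animals. The series set its gene expression beside chromatin structure in the same stages, and 3 comparisons, 1 for each pair of stages, are given here.

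Transcription and translation are uncoupled for long stretches of sperm formation, because the condensing spermatid nucleus falls silent before many of its proteins are made. Messages are therefore packed into ribonucleoprotein particles and released later. Y-box proteins coat messages through a cold-shock domain and hold them in store, poly(A)-binding proteins coat the tail and join it to the cap-binding complex, DAZ-family proteins bind U-rich 3′ untranslated regions and recruit poly(A)-binding proteins, and CPEB proteins lengthen or shorten tails at the cytoplasmic polyadenylation element.

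Library totals ran from 47963279 to 64639201 estimated counts. Levels across libraries are CPM, the count divided by the library total after that total was scaled by its TMM factor, as mean ± SD of n = 3 libraries, and levels across genes are the authors' TPM, which divides by length. The 9 genes had between 378 and 745117 estimated counts in any library; some marker and list genes had far fewer. The spermatogonia libraries were closer to each other than other replicates were. A gene's median chi-square between a pair of them was 0.797 to 0.851, where counting alone gives 0.455, against 4.49 to 10.4 between spermatocyte libraries and 2.26 to 13.4 between round spermatid libraries. Round spermatids 2 stood apart from the other round spermatid libraries, and log2 fold changes of the 9 genes that moved by over 1.5 times without it are also given without it.

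Marker genes fitted the labels in part. Of 14 spermatocyte markers 14 were found, and they summed to 3534 to 4286 CPM in spermatocyte libraries, 1336 to 1356 in spermatogonia and 429.9 to 495 in round spermatids. Round spermatid markers (12 of 14 found) summed to 4977 to 7286 CPM in round spermatids, and also to 2062 to 2109 in spermatogonia and 543 to 1624 in spermatocytes. That sum is mostly PRM1, PRM2, TNP1 and TNP2; of the 12 markers 5 were higher and 6 lower in round spermatids than in spermatogonia, such as the acrosomal gene ACRV1 with 52.7 ± 16.3 against 119 ± 2.74 CPM and SPACA4 with 8.73 ± 2.82 against 101 ± 1.204. Spermatogonia markers (11 of 14) summed to 187 to 189.6 CPM in spermatogonia, 111 to 126 in spermatocytes and 177 to 235 in round spermatids. Of these 11 markers, 8 were called lower and 1 higher in spermatocytes than in spermatogonia. In round spermatids against spermatogonia 6 were called lower and 3 higher. UCHL1 stood at 26.1 ± 1.36 CPM in spermatogonia, 1.72 ± 0.679 in spermatocytes and 1.90 ± 0.686 in round spermatids. ID4 went the other way, with 1.03 ± 0.0509, 1.69 ± 0.460 and 105 ± 36.3 CPM. KIT, the receptor gene whose name heads the columns taken as spermatogonia, was lowest there, at 6.36 ± 0.165 CPM against 7.47 ± 0.747 in spermatocytes and 24.6 ± 1.54 in round spermatids, so it goes against that label. Somatic markers moved with the stages too. Peritubular myoid markers (10 of 10) summed to 25.1 to 26.6 CPM in spermatogonia, 11.2 to 27.5 in spermatocytes and 5663 to 7208 in round spermatids, and Sertoli markers (15 of 16) to 308 to 318, 62.2 to 87.7 and 1235 to 1322. Leydig markers (8 of 10) summed to 312 to 329.5, 6.74 to 8.84 and 49.4 to 54.0 CPM, endothelial markers (7 of 8) to 20.6 to 22.3, 11.6 to 24.1 and 189.7 to 212, leukocyte markers (10 of 10) to 8.83 to 9.04, 4.69 to 7.16 and 33.8 to 41.3, and erythrocyte markers (4 of 7) to 1.74 to 2.06, 0.882 to 1.30 and 0.965 to 1.42. The Sertoli hormone gene AMH was at 0 in all 3 spermatocyte libraries, and no other marker was at 0 throughout a stage. The part of these other cells in the results below was not tested, and in such bulk samples fewer cells of a type and less RNA per cell cannot be told apart. Stage names here mean the libraries matched to that label, whichever cells they hold.

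The abundant members of the set, which were the 3 Y-box genes and PABPC1, were all highest in spermatocytes, while PABPC4 was lowest there and CPEB1 was highest in spermatogonia. In spermatocytes against spermatogonia 5 of the 9 genes were higher (YBX1, YBX2, YBX3, PABPC1 and BOLL) and 2 were lower (PABPC4 and CPEB1) in edgeR's quasi-likelihood test. Over all 16802 genes tested 73.4% were called in that comparison, 29.3% higher and 44.0% lower, so the 7 calls of 9 are near the background share. In round spermatids against spermatocytes 1 of the 9 was higher (PABPC4) and 7 were lower, all but CPEB1, where 79.2% of all genes were called, 42.7% higher and 36.4% lower. In round spermatids against spermatogonia 0 of the 9 were higher (0 also at an unadjusted p below 0.05, and 0 by DESeq2) and 5 were lower (YBX1, BOLL, DAZAP1, CPEB1 and CPEB2), where 79.2% of all genes were called, 39.5% higher and 39.7% lower. Libraries of the 2 stages did not overlap for 7, 8 and 5 of the 9 genes in these comparisons, against 79.9, 78.2 and 85.2% of all genes. The median log2 fold change of the 9 genes was 0.41, -1.25 and -0.47, beside 0.19 for all genes in round spermatids against spermatocytes, 0.0029 in round spermatids against spermatogonia and -0.32 in spermatocytes against spermatogonia. The first median of the 9 genes turned to -0.016 without normalization factors and -0.12 on TPM, and the last was -1.08 on TPM. Each stage serves in 2 of the comparisons, so their values are not independent of each other.

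**Figure D1:**
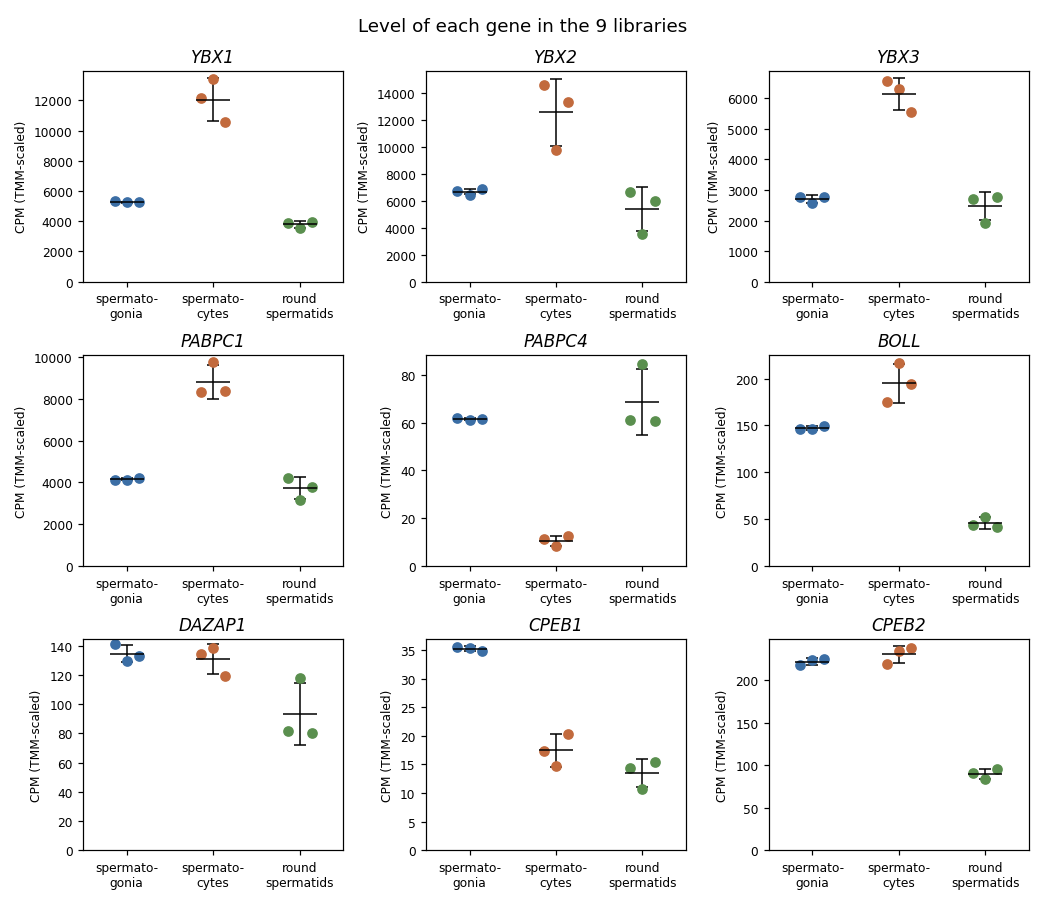
Level of each of the 9 genes in every library, in CPM scaled with TMM factors (vertical axes start at 0 and differ between panels), by stage; points are libraries in the order of their numbers, the horizontal mark is the mean and the bars are 1 SD of 3 libraries. YBX1, YBX2, YBX3 and PABPC1 are highest in the 3 spermatocyte libraries, PABPC4 is lowest there, and BOLL and CPEB2 are lowest in round spermatids.

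By mean TPM the Y-box genes were the most abundant of the set in each stage. YBX2 and PABPC1 overlapped over libraries in spermatocytes and round spermatids. YBX1, the general Y-box protein of somatic and germ cells, lies on chromosome 6 of Sscrofa11.1 from 168716782 to 168736475 (ENSSSCG00000028485). It had a mean of 9548 TPM in spermatogonia, 15141 in spermatocytes and 4589 in round spermatids. By that mean it ranked 2 among all genes in spermatogonia, 2 in spermatocytes and 16 in round spermatids. Its CPM was 5311, 5243 and 5251 in spermatogonia, 12147, 13398 and 10589 in spermatocytes, and 3914, 3537 and 3978 in round spermatids. No library of a stage reached into another stage, with spermatocytes highest and round spermatids lowest. It rose 2.29-fold from spermatogonia to spermatocytes (log2 1.19 ± 0.12 SE, edgeR, adjusted p = 1.27e-05) and was 3.16-fold lower in round spermatids than in spermatocytes (-1.66 ± 0.12, adjusted p = 4.96e-07). Round spermatids were also below spermatogonia, by 1.38-fold (-0.47 ± 0.12, adjusted p = 0.00468). With the spermatogonia libraries summed to 1 this last call was lost (adjusted p = 0.0635; 0.000533 to 0.0635 over all 19 alternatives).

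YBX2, the germ cell Y-box protein known as MSY2 in the mouse and Contrin in humans, is required for male fertility in the mouse. It lies on chromosome 12 from 52635383 to 52642443 (ENSSSCG00000017938). Its CPM was 6709, 6460 and 6857 in spermatogonia, 14604, 9750 and 13294 in spermatocytes, and 6648, 3544 and 5963 in round spermatids. Spermatocytes were highest in each library, while round spermatids 1 fell within the range of spermatogonia and round spermatids 2 far below it. The gene rose 1.88-fold from spermatogonia to spermatocytes (log2 0.91 ± 0.23 SE, edgeR, adjusted p = 0.00435) and was 2.33-fold lower in round spermatids than in spermatocytes (-1.22 ± 0.23, adjusted p = 0.000567). The rise was not called on TPM (log2 0.37, limma, adjusted p = 0.114) or with spermatogonia libraries summed (0.84, edgeR, adjusted p = 0.0986); over its 19 alternatives adjusted p ran from 2.81e-06 to 0.114. Round spermatids and spermatogonia were not told apart (-0.31 ± 0.23, adjusted p = 0.228), and without round spermatids replicate 2 the difference was -0.082. On TPM round spermatids were called lower (-0.97, limma, adjusted p = 0.000801), and adjusted p ran to 0.626 over the 19 alternatives.

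YBX3, also called CSDA or MSY4, binds the same Y-box sequence and is expressed in testis and other tissues. It lies on chromosome 5 from 61337868 to 61361269 (ENSSSCG00000000633). Its CPM was 2774, 2571 and 2773 in spermatogonia, 6562, 6302 and 5552 in spermatocytes, and 2713, 1936 and 2775 in round spermatids. Spermatocytes stood above both other stages, which overlapped each other. It rose 2.27-fold from spermatogonia (log2 1.18 ± 0.15 SE, edgeR, adjusted p = 5.48e-05) and was 2.48-fold lower in round spermatids than in spermatocytes (-1.31 ± 0.15, adjusted p = 1.5e-05). Round spermatids against spermatogonia gave -0.13 ± 0.15 (adjusted p = 0.442), which turned to 0.020 without round spermatids replicate 2. On TPM it was called lower (-0.76, limma, adjusted p = 0.000949), with adjusted p up to 0.837 over the 19 alternatives.

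No change in the proportions of the 3 Y-box messages to each other passed its test. Of their summed TPM, YBX1 took 53.3% ± 0.830 in spermatogonia, 55.7% ± 4.31 in spermatocytes and 49.5% ± 5.05 in round spermatids (SD, n = 3 each). YBX2 took 24.3% ± 0.358, 21.0% ± 4.44 and 24.5% ± 4.16, and YBX3 22.4% ± 0.555, 23.3% ± 0.400 and 25.97% ± 1.14. A ratio of a gene pair within a library does not depend on how libraries are scaled, so 5 such ratios were tested over the 3 stages with an exact permutation test of the F statistic, adjusted over the 5. The smallest p that 1680 assignments of 9 libraries can give is 0.00357. YBX2 to YBX1 gave an exact p = 0.379 (adjusted 0.379), YBX2 to YBX3 an exact p = 0.321 (adjusted 0.379), and YBX3 to YBX1 an exact p = 0.0429 (adjusted 0.0714), with YBX3 to YBX1 1.26-fold higher in round spermatids than in spermatocytes. None of the 3 passed. Without round spermatids replicate 2 both ratios to YBX1 passed (0.63 and 0.45 on the log2 scale, exact permutation, adjusted p = 0.0491 each), with adjusted p over the 12 alternatives from 0.0491 to 0.761 for YBX2 to YBX1 and to 0.167 for YBX3 to YBX1.

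PABPC1 is the main cytoplasmic poly(A)-binding protein, which protects tails and promotes translation. It lies on chromosome 4 from 36137644 to 36228075 (ENSSSCG00000006063) and ranked 14, 14 and 34 by mean TPM in spermatogonia, spermatocytes and round spermatids. Its CPM was 4124, 4134 and 4195 in spermatogonia, 8347, 9775 and 8376 in spermatocytes, and 4193, 3147 and 3802 in round spermatids. Spermatocytes were separate and high, and round spermatids reached into the range of spermatogonia. The gene rose 2.13-fold (log2 1.09 ± 0.13 SE, edgeR, adjusted p = 4.1e-05) and was then 2.38-fold lower (-1.25 ± 0.13, adjusted p = 8.25e-06). Round spermatids against spermatogonia gave -0.16 ± 0.13 (adjusted p = 0.282), which was -0.055 without round spermatids replicate 2. On TPM it was called lower (-0.78, limma, adjusted p = 0.00158), with adjusted p up to 0.582 over the 19 alternatives. Copies of PABPC1 and YBX1 without introns are common in mammalian genomes, and how reads shared with such copies were assigned is not stated.

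PABPC4, the inducible poly(A)-binding protein first described in activated T cells, moved the opposite way to PABPC1. It lies on chromosome 6 from 95382295 to 95399452 (ENSSSCG00000003660). Its CPM was 62.1, 61.0 and 61.6 in spermatogonia, 11.09, 8.25 and 12.4 in spermatocytes, and 61.0, 84.6 and 60.7 in round spermatids. All 3 spermatocyte libraries lay far below every other library, while round spermatids 2 was the highest of all. The gene was 5.81-fold lower in spermatocytes than in spermatogonia (log2 -2.54 ± 0.18 SE, edgeR, adjusted p = 1.61e-06) and 6.49-fold higher in round spermatids than in spermatocytes (2.70 ± 0.18, adjusted p = 2.46e-07). Of all genes tested, 90.0% had a smaller absolute log2 change in the first of these comparisons and 79.6% in the second. Both calls held under all 19 alternatives, with log2 changes from -2.95 to -2.30 and from 2.39 to 3.17. Round spermatids against spermatogonia gave 0.16 ± 0.17 (adjusted p = 0.403), which was -0.016 without round spermatids replicate 2 and -0.45 on TPM. As for PABPC4, summed Leydig, Sertoli and leukocyte markers were lowest in spermatocytes, and so were summed spermatogonia and round spermatid markers. Of 9 leukocyte markers tested in spermatocytes against spermatogonia, 2 were called lower, 1 higher and 6 not called. The part of any of these cells in this result was not tested.

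PABPC4 made up a small share of the poly(A)-binding pair. Of the TPM of PABPC1 and PABPC4 together, it was 1.21, 1.19 and 1.18% in spermatogonia, 0.108, 0.0687 and 0.121% in spermatocytes, and 1.17, 2.14 and 1.28% in round spermatids. The 3 spermatocyte libraries did not overlap with any other. On the log2 scale the PABPC4 to PABPC1 ratio was 15.3-fold higher in round spermatids than in spermatocytes, with an exact permutation p = 0.0143 over the 3 stages that did not pass after adjustment over the 5 ratios (adjusted 0.0714). It passed with a pseudocount of 1 TPM in place of 0.1 (exact permutation, adjusted p = 0.0357) and without each round spermatid library in turn (adjusted p = 0.0179, 0.0491 and 0.0357 without replicates 1, 2 and 3), within a range of 0.0179 to 0.143 over the 12 alternatives.

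**Figure D2:**
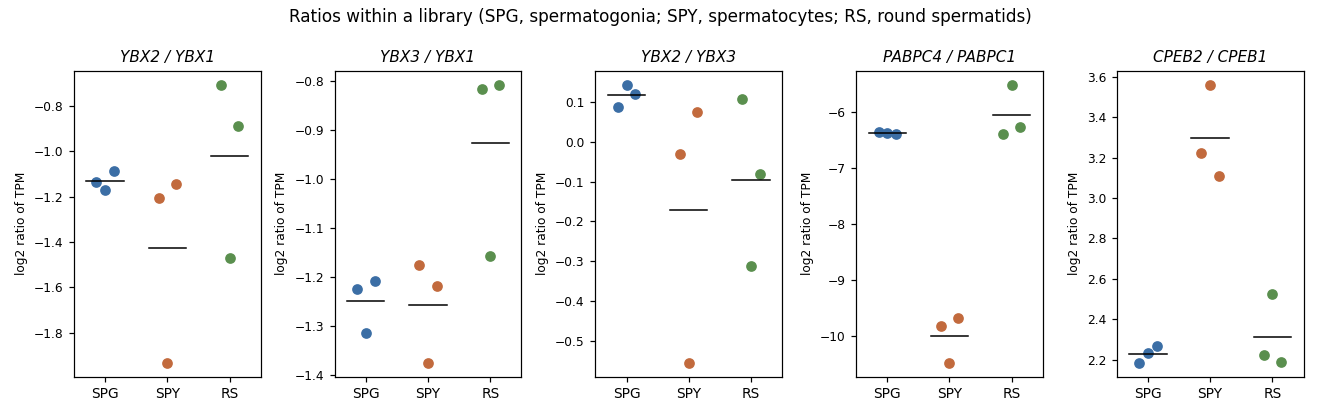
Log2 ratio of the TPM of paired genes within each library (vertical axes differ between panels), by stage; points are libraries and lines are means of 3. The PABPC4 to PABPC1 ratio lies between -10.47 and -9.67 in spermatocytes and between -6.39 and -5.51 in the other stages, and the CPEB2 to CPEB1 ratio is highest in the 3 spermatocyte libraries, while the 3 Y-box ratios span less than 1 unit between stage means.

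BOLL is the ancestral member of the DAZ family, needed in animals for meiosis or for spermatid development. It lies on chromosome 15 from 101535392 to 101602232 (ENSSSCG00000016082). With 537 ± 10.8 TPM in spermatogonia, 496 ± 59.6 in spermatocytes and 115 ± 51.5 in round spermatids it was the fifth of the set in each stage. Its CPM was 145.9, 145.9 and 149.7 in spermatogonia, 175, 216 and 194 in spermatocytes, and 43.4, 52.6 and 41.4 in round spermatids. Round spermatids were lowest with no overlap, and spermatocytes were above spermatogonia on this scale by 1.33-fold (log2 0.41 ± 0.12 SE, edgeR, adjusted p = 0.0112). That small rise depended on the processing: it was -0.016 without normalization factors and -0.12 on TPM (adjusted p = 0.929 and 0.690), and was not called with spermatogonia libraries summed (0.34, adjusted p = 0.231). Over 19 alternatives adjusted p ran from 0.000286 to 0.929. The fall into round spermatids was 4.26-fold (-2.09 ± 0.13, adjusted p = 1.06e-07) and held under all 19 alternatives, from -2.29 to -1.62. Against spermatogonia round spermatids were 3.22-fold lower (-1.69 ± 0.12, adjusted p = 6.2e-07), which also held in all 19.

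DAZAP1, an RNA-binding protein that associates with DAZ and DAZL and is found in many tissues, lies on chromosome 2 from 77048890 to 77070565 (ENSSSCG00000013427). Its CPM was 141, 129.9 and 133 in spermatogonia, 135, 139 and 119 in spermatocytes, and 81.7, 118 and 80.3 in round spermatids. Spermatocytes and spermatogonia overlapped (log2 -0.042 ± 0.15 SE, edgeR, adjusted p = 0.809), and the sign of this difference changed in 6 of 19 alternatives. Round spermatids lay below both, with round spermatids 2 close to spermatocytes. They were 1.40-fold lower than spermatocytes (-0.49 ± 0.15, adjusted p = 0.0120), a call lost without normalization factors (-0.0024, adjusted p = 0.992) and on TPM (-0.59, adjusted p = 0.0857), within 7.1e-05 to 0.992 over 19 alternatives. They were 1.45-fold lower than spermatogonia (-0.53 ± 0.15, adjusted p = 0.00784), a call lost with spermatogonia libraries summed (-0.61, adjusted p = 0.0600), the highest of 19 alternatives from 5.18e-05.

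CPEB1 is the founding CPEB protein, which controls tails of meiotic messages, including those of the synaptonemal complex in the mouse. It lies on chromosome 7 from 52329054 to 52382408 (ENSSSCG00000001808). Its CPM was 35.6, 35.4 and 34.8 in spermatogonia, 17.3, 14.6 and 20.4 in spermatocytes, and 14.4, 10.7 and 15.4 in round spermatids. Spermatogonia were highest with no overlap, while the later stages overlapped each other. The gene was 2.02-fold lower in spermatocytes than in spermatogonia (log2 -1.01 ± 0.16 SE, edgeR, adjusted p = 0.000265) and 2.61-fold lower in round spermatids than in spermatogonia (-1.38 ± 0.16, adjusted p = 2.08e-05), and both calls held under all 19 alternatives. Round spermatids against spermatocytes gave -0.37 ± 0.16 (adjusted p = 0.0580). This passed in 6 of 19 alternatives, among them without spermatocytes replicate 3 (-0.49, adjusted p = 0.0190) and without round spermatids replicate 3 (-0.48, adjusted p = 0.0359). It shrank to -0.23 without round spermatids replicate 2 (adjusted p = 0.145) and was 0.065 without normalization factors, with adjusted p from 0.00389 to 0.725 over all 19.

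CPEB2, of the other branch of the family with CPEB3 and CPEB4, lies on chromosome 8 from 10401350 to 10472141 (ENSSSCG00000038410). Its CPM was 217, 224 and 225 in spermatogonia, 219, 235 and 238 in spermatocytes, and 91.1, 83.6 and 95.4 in round spermatids. The first stages overlapped, and round spermatids were far below both. It was 2.56-fold lower in round spermatids than in spermatocytes (log2 -1.36 ± 0.095 SE, edgeR, adjusted p = 3.18e-07) and 2.47-fold lower than in spermatogonia (-1.30 ± 0.095, adjusted p = 5.84e-07), under every one of the 19 alternatives. Spermatocytes against spermatogonia gave 0.054 ± 0.094 (adjusted p = 0.617), with no stable direction: 5 alternatives called it higher, up to 0.30 with TMM factors taken without the 50 most abundant genes (adjusted p = 0.0180), and it was called lower without normalization factors (-0.37, adjusted p = 0.00540) and on TPM (-0.47, adjusted p = 0.0337), within 0.00486 to 0.962.

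CPEB1 was the minor message of its pair in every library. Of the summed TPM of CPEB1 and CPEB2, CPEB1 was 18.0, 17.5 and 17.2% in spermatogonia, 9.58, 7.72 and 10.3% in spermatocytes, and 17.5, 14.6 and 17.8% in round spermatids. Spermatocytes were lowest with no overlap. The CPEB2 to CPEB1 ratio was 2.10-fold higher in spermatocytes than in spermatogonia, with an exact permutation p = 0.0286 that did not pass over the 5 ratios (adjusted 0.0714). It passed without each round spermatid library (adjusted p = 0.0357, 0.0491 and 0.0357 without replicates 1, 2 and 3), within 0.0357 to 0.143 over 12 alternatives.

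**Figure D3:**
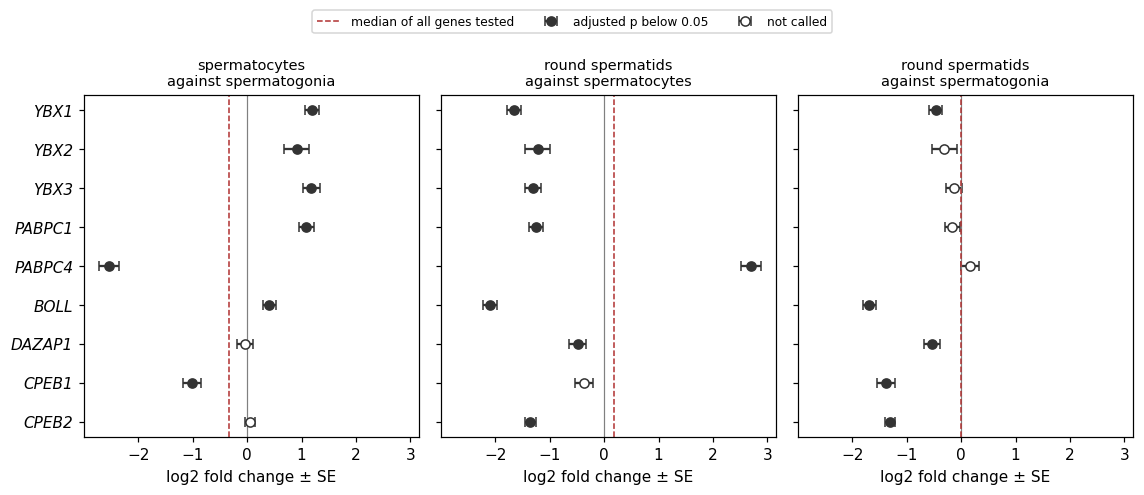
Log2 fold change of each gene (horizontal axis, point ± SE) in the 3 comparisons, first stage minus second; filled points have an edgeR adjusted p below 0.05, and the dashed line is the median of all 16802 genes. PABPC4 lies opposite to the 3 Y-box genes and PABPC1 in the comparisons with spermatocytes, at -2.54 and 2.70.

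By TPM the order of the genes was nearly the same in all stages. In spermatogonia it ran YBX1, YBX2, YBX3, PABPC1, BOLL, DAZAP1, CPEB2, PABPC4 and CPEB1, and no neighbours overlapped over libraries. In spermatocytes YBX3 and YBX2, YBX2 and PABPC1, and DAZAP1 and CPEB2 overlapped, and PABPC4 fell to the last place with 5.10 ± 1.24 TPM, below CPEB1 with 8.53 ± 1.86. In round spermatids the neighbours from YBX3 to PABPC1 and from BOLL to CPEB2 overlapped, and CPEB1 was last with 6.12 ± 0.622 TPM. The 9 genes together made up 2.31% ± 0.0347 of all TPM of the deposited table in spermatogonia, 3.43% ± 0.0515 in spermatocytes and 1.28% ± 0.150 in round spermatids (SD, n = 3 each). The stages did not overlap in this sum, which ran from 21962 to 22624, 32747 to 33447 and 10265 to 13376 TPM. Most of the sum was YBX1, YBX2, YBX3 and PABPC1 in every stage. The mean TPM of BOLL, DAZAP1, PABPC4, CPEB1 and CPEB2 was lower in spermatocytes than in spermatogonia. For BOLL the libraries of these stages overlapped in TPM, and the difference was not called (log2 -0.12, limma, adjusted p = 0.690). In the edgeR fit on counts BOLL was called higher in spermatocytes, and DAZAP1 and CPEB2 were not called.

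Other genes of tail length control gave the counts that follow, from lists written with earlier results of these data known. The counts of all 5 lists stand beside these shares of all genes tested. In spermatocytes against spermatogonia 29.3% were higher and 44.0% lower (median log2 change -0.32). The shares were 42.7 and 36.4% in round spermatids against spermatocytes (median 0.19), and 39.5 and 39.7% in round spermatids against spermatogonia (median 0.0029). Of 27 tested genes for poly(A) polymerases and deadenylases, 17 were higher and 4 lower in spermatocytes than in spermatogonia, with a median log2 change of 0.62 beside -0.32 for all genes; 9 were higher on TPM, and 8 were lower without normalization factors. CNOT6, a catalytic deadenylase, stood at 172 ± 16.2 against 35.1 ± 0.189 CPM, and TENT5B, of a family of non-canonical poly(A) polymerases, was lower at 6.15 ± 0.497 against 22.6 ± 0.418. From spermatocytes to round spermatids 18 fell and 7 rose (median -0.72; 10 fell without normalization factors). CNOT1, the scaffold of the CCR4-NOT complex, fell from 2128 ± 456 to 382 ± 39.1 CPM. TENT5A, another member of the TENT5 family, rose from 2.65 ± 1.40 to 166 ± 9.10 CPM. Summed myoid and Sertoli markers also rose in this comparison, and their part in this rise or those of other named genes was not tested. In round spermatids against spermatogonia 12 were higher and 9 lower, with a median of 0.19 that was -0.31 on TPM, where 5 were higher.

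Of 13 tested genes for other poly(A)-binding proteins and partners of the family, 8 were higher and 2 lower in spermatocytes than in spermatogonia (median 0.81), 3 were higher and 8 lower in round spermatids than in spermatocytes (median -0.74), and 6 were higher and 3 lower in round spermatids than in spermatogonia (median 0.43, and -0.16 on TPM, with 2 higher and 5 lower). With spermatogonia libraries summed, 3 were higher in the last comparison and 0 lower in the first, where leaving out spermatocytes replicate 2 or fitting only the compared stages left 1. PABPC1L and PABPC5, the PABPC genes among them, were near 0 and were chosen for mention after their values were seen. PABPC1L had means of 0.19, 0.12 and 0.135 CPM and PABPC5 0.0331, 0.0324 and 0.472 CPM in spermatogonia, spermatocytes and round spermatids. PABPN1 and PABPN1L were on the list but not among the genes tested. PAIP1, which binds PABPC1 and stimulates translation, stood at 140.1 ± 4.29, 654 ± 72.7 and 175 ± 41.7 CPM in spermatogonia, spermatocytes and round spermatids. LARP1B stood at 285 ± 5.74, 1867 ± 49.1 and 385 ± 114 CPM, and LARP1, which binds messages with a 5′ terminal oligopyrimidine tract, at 457 ± 8.69, 937 ± 91.5 and 221 ± 24.5. PAIP2B, of the inhibitors of poly(A)-binding proteins, fell at each step, with 21.0 ± 1.81, 13.7 ± 2.11 and 6.64 ± 1.08 CPM.

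Of 25 tested genes of cap-binding and storage complexes 14 were higher and 8 lower in spermatocytes than in spermatogonia (median 0.60, with 7 higher on TPM), and 6 were higher and 14 lower in round spermatids than in spermatocytes (median -0.55, with 10 higher without normalization factors). Round spermatids against spermatogonia gave 10 higher and 14 lower (median -0.34, with 6 higher on TPM). EIF4G3, a scaffold of the cap-binding complex needed for male meiosis in the mouse, stood at 639 ± 20.2, 1454 ± 238 and 252 ± 11.15 CPM over the stages. DDX6, a helicase of stored messages, stood at 121 ± 2.76, 344 ± 39.96 and 72.4 ± 2.74. EIF4EBP1, which blocks the cap-binding protein, was lowest in spermatocytes with 10.4 ± 0.412, 2.34 ± 0.694 and 49.98 ± 11.02 CPM.

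Among 49 tested genes of other regulators that bind 3′ untranslated regions or act on germ cell messages, 21 were higher and 14 lower in spermatocytes than in spermatogonia, with a median of 0.22 that turned to -0.25 on TPM (8 higher) and was also below 0 without normalization factors (13 higher). From spermatocytes to round spermatids 13 rose and 30 fell (median -0.66, with 19 lower without normalization factors), and against spermatogonia 11 were higher and 24 lower (median -0.38, with 7 higher on TPM). RBM46, a germ cell RNA-binding protein needed for meiosis in the mouse, stood at 102 ± 2.52, 359 ± 12.4 and 25.6 ± 1.70 CPM. The cold-inducible gene RBM3 stood at 43.1 ± 1.10, 29.9 ± 6.97 and 193 ± 10.8 CPM, and MEX3D at 157 ± 1.76, 30.3 ± 14.6 and 228 ± 36.7. The relatives of CPEB2, chosen for mention after their values were seen, differed from each other. CPEB3 had means of 24.2, 11.6 and 27.4 CPM, lower in spermatocytes than in either other stage (edgeR, adjusted p = 0.00629 and 0.00215), and CPEB4 had 52.7, 88.4 and 27.4 CPM, higher in spermatocytes than in both (adjusted p = 0.0011 and 2.11e-06).

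Messages known to be stored or controlled at translation gave 7 higher and 11 lower of 25 tested in spermatocytes against spermatogonia (median -0.63), with 3 higher on TPM and 4 higher without normalization factors or with spermatogonia libraries summed. From spermatocytes to round spermatids 14 rose and 8 fell (median 1.35). Round spermatids against spermatogonia gave 6 higher and 5 lower (median 0.29, and -0.35 on TPM with 10 lower), with 12 higher when only these stages were fitted and 11 without spermatocytes replicate 3. Protamine genes, whose messages YBX2 holds in store in the mouse, rose into round spermatids: PRM1 stood at 746 ± 9.67, 518 ± 275 and 3086 ± 708 CPM and PRM2 at 184 ± 3.34, 108 ± 52.6 and 902 ± 147. DDX4, a germ cell helicase whose message DAZL binds, was highest in spermatocytes with 399 ± 6.40, 1073 ± 79.9 and 205 ± 28.4 CPM, and CLGN, a chaperone of the germ cell endoplasmic reticulum, stood at 900.3 ± 7.95, 7016 ± 782 and 707 ± 238. PRM1 was not called between spermatocytes and spermatogonia (log2 -0.53, edgeR, adjusted p = 0.223). LDHC stood at 349 ± 9.01, 449 ± 73.2 and 129 ± 19.7 CPM, and CCNB1 at 171 ± 1.81, 95.2 ± 13.7 and 68.4 ± 18.1, both called lower in round spermatids than in spermatogonia.

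**Figure D4:**
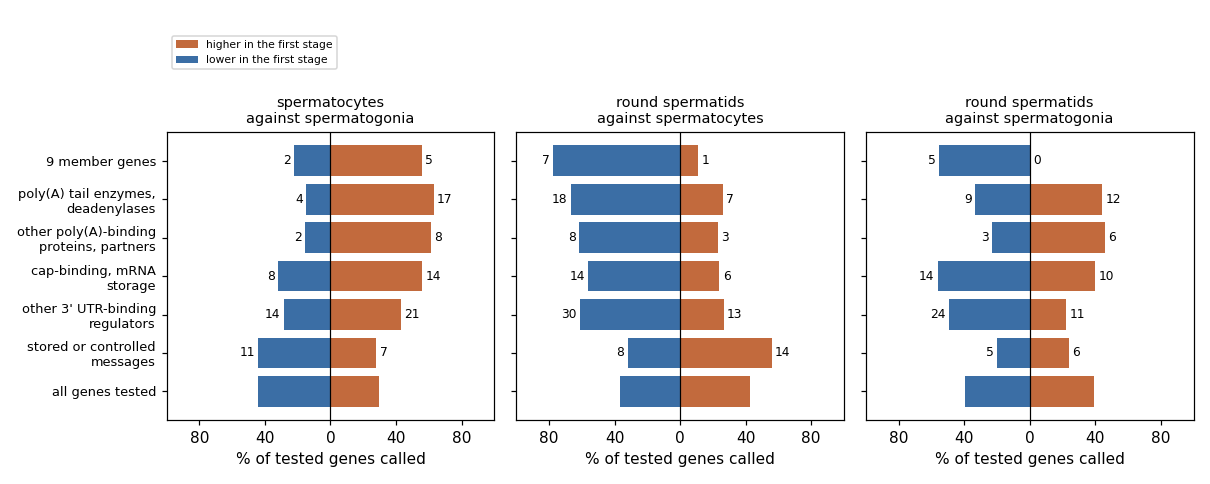
Share of tested genes (horizontal axis, %) that were higher (right) or lower (left) in the first stage of each comparison at an edgeR adjusted p below 0.05, for the 9 genes, 5 lists of related genes and all 16802 genes tested; numbers at the bars are counts of genes, left off for all genes. The stored or controlled messages have more rises than falls from spermatocytes to round spermatids (14 and 8), and the 9 genes have 1 and 7.

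The genes nearest to a member in pattern were sought among 7773 genes with a symbol and a mean of at least 10 CPM, by Pearson r of log2 CPM over the 9 libraries, which fall into 3 stages. For BOLL these were ARMC2 (r = 0.999), TDRD5 (0.999) and SFMBT1 (0.999), with 895 candidates above 0.95. For CPEB1 they were CAMK4 (0.994), SPAM1 (0.991) and LRRC73 (0.990), and for YBX2 PDZD9 (0.981), KLK4 (0.979) and MAD2L2 (0.978), with 46 and 43 candidates above 0.95. TDRD5, a tudor protein of germ granules, stood at 52.7 ± 1.59, 79.2 ± 16.2 and 6.95 ± 1.52 CPM over the stages. The sperm hyaluronidase gene SPAM1 stood at 40.7 ± 0.578, 14.6 ± 5.31 and 7.84 ± 1.68.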

How the data were processed

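Libraries from a directional kit for total RNA were read from both ends on an Illumina HiSeq, per the labels' protocols. The submitters' processing notes name Sscrofa11.1 and bcl2fastq. The sources used here name no aligner, quantifier, annotation or strand setting, so overlapping, antisense and near-identical genes are uncertain. The authors deposited a table of estimated counts per gene and a table of TPM, with 1 column per library. The deposited TPM columns sum to 3.19 to 11.8% less than the full scale. Titles and column headings were matched by name and number for round spermatids; headings of spermatocytes and spermatogonia use the words for pachytene and for the KIT receptor, and that match rests on the meaning of these words. Of 15 library columns 6 were not used: further round spermatid columns, and columns headed with SSEA4, a surface antigen also used to sort spermatogonia, of which 1 shares a number with a spermatogonia title. Which heading belongs to the spermatogonia titles is therefore not certain, and every spermatogonia value rests on that choice.

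Symbols were found for 14749 of 22342 identifiers. Coordinates come from a RefSeq table of Sscrofa11.1, matched by symbol. Estimated counts were rounded, filtered with filterByExpr, scaled with TMM factors (0.774 to 1.26) and fitted with the quasi-likelihood model of edgeR 4.0.16 (R 4.3.3) on all 9 libraries. The absolute log2 change over the root of its F gave the standard error. Calls needed a Benjamini-Hochberg adjusted p below 0.05 over all 16802 genes. Ratios used log2(TPM + 0.1) and exact permutation. Of 7 planned ratios 5 had both genes. Alternatives used DESeq2 1.42.0, limma 3.58.1 and other scalings, filters and library sets. Python 3.11.15, scipy 1.17.1 and pandas 2.3.3 made the tables. The count fits were also run on simulated counts in which few genes changed between stages. That does not test the calls where most genes differ, as in these data. Named genes were all members found and, per list and comparison, up to 2 called genes with the largest rise and 2 with the largest fall, at 10 CPM or more in the higher stage and with no overlap of libraries; for likeness, the 3 genes of highest r. Members and lists were chosen with earlier results of these data known. Since no label ties a library to its own animal, the p-values rest on differences among these libraries that may be technical. Numbers shared between stages were not taken to pair libraries. Deviations of libraries with the same number correlated at -0.033, 0.0036 and 0.026 for spermatogonia and round spermatids. They correlated at -0.044 and -0.018 for spermatogonia and spermatocytes, and at -0.029 and -0.038 for spermatocytes and round spermatids. Spermatogonia libraries differed little from each other, so this check cannot exclude that stages share animals.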

Additional observations from a re-analysis of the deposited data

How the results depend on the processing

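Of 513 values of single genes under 19 alternatives, 476 kept their direction and call. Counts of called genes moved by over 1.5 times in 4 cases: 3 higher in spermatocytes than in spermatogonia on TPM and 3 with spermatogonia libraries summed, in place of 5, and 8 lower in round spermatids than in spermatogonia on TPM and 3 with spermatogonia libraries summed, in place of 5. Calls in spermatocytes against spermatogonia were split 5 to 2, and 4 to 3 without normalization factors, where higher genes made up 26.8% of all calls in place of 39.98%. All genes higher in that comparison were 4930, 2604 on TPM and 3229 with spermatogonia libraries summed, and the median change of all genes ran from -0.74 without normalization factors to -0.084 with TMM factors taken without the 50 most abundant genes. In round spermatids against spermatocytes that median ran from -0.0085 to 0.64 under these scalings, and all genes were called higher in 54.0% of calls, 65.7% without normalization factors. In round spermatids against spermatogonia it was 49.9%, and 34.9% on TPM. Signs turned for BOLL (-0.016 without normalization factors, -0.12 on TPM), DAZAP1 (0.14 with RLE factors, 0.20 without the 50 most abundant genes in scaling, 0.18 without a filter, 0.14 with DESeq2, 0.16 with only the compared stages, 0.022 without spermatocytes replicate 4) and CPEB2 (-0.37 without normalization factors, -0.47 on TPM, -0.013 with spermatogonia libraries summed) between spermatocytes and spermatogonia. They also turned for CPEB1 between round spermatids and spermatocytes (0.065 without normalization factors), and between round spermatids and spermatogonia for YBX3 (0.020 without round spermatids replicate 2, the highest with single libraries left out, where the lowest was -0.23) and PABPC4 (-0.45 on TPM, and -0.016 without that library to 0.24 with others left out). The cause was not tested.

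Log2 ratios, highest stage minus lowest, ran with single libraries left out from 3.66 to 4.10 for PABPC4 to PABPC1, 0.94 to 1.16 for CPEB2 to CPEB1, 0.15 to 0.63 for YBX2 to YBX1 and 0.27 to 0.45 for YBX3 to YBX1; with a pseudocount of 1 TPM the first was 3.74. With library number as a replicate block 4 genes in place of 5 were higher in spermatocytes than in spermatogonia, since BOLL gave 0.39 (edgeR, adjusted p = 0.0668), and it changed no other call of the 9 genes. The lowest estimated count of the 9 genes in a library was 378; the effect of depth was not tested.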
